A study of Mus musculus with 4 samples.

Results

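Basophils and mast cells are blood-derived cells of type 2 immunity that carry the high-affinity receptor for IgE on their surface. When antigen cross-links receptor-bound IgE, they release histamine and proteases from granules and secrete cytokines such as interleukin-4. Mature mast cells live in tissue and depend on the receptor kinase KIT, whereas basophils circulate and carry little KIT, and both lineages need the transcription factor GATA2. The 9 genes described here cover these functions. Prss34, Mcpt8 and Cpa3 encode granule proteases, Ms4a2 and Fcer1a the beta and alpha chains of the IgE receptor, Hdc the enzyme that makes histamine, and Il4 the cytokine. Gata2 and Kit encode the lineage factor and the receptor for stem cell factor. Their probes were taken by name, as every probe on the array whose gene name is one of the 9, out of 37074 gene names. The 9 genes themselves were chosen with earlier results of these data known. The 9 genes had 14 probes among 56605, each printed as 1 spot of 60 bases. All 9 passed the filter on dim features (well above background on at least 2 of 4 arrays), as did 23520 features in all.

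The samples were cells sorted from tumours of 4T1, a mouse mammary carcinoma line, grown in untreated BALB/C mice. Cells were sorted with the ALDEFLUOR assay, which marks aldehyde dehydrogenase (ALDH) activity, into a fraction of low and a fraction of high activity, from mice at zeitgeber time ZT0 or ZT12 (hours after lights on by the usual convention). Total RNA of each of the 4 fractions was measured on 1 one-colour Agilent array, so each group (ALDH-low or ALDH-high at ZT0 or ZT12) has 1 array. The labels name neither the number of mice behind a fraction nor any gate against other cells before the sort. No difference between 2 arrays has a replicate check, and none has a test. Because these are bulk fractions, fewer cells of a type and less RNA per cell cannot be told apart in any result below.

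A level is the log2 of the processed signal minus the 75th percentile of its array, and a difference between arrays is a difference of levels. The 75th percentile of the signal was 214 on the ALDH-low and 301 on the ALDH-high array at ZT0, and 459 and 156 at ZT12. Dividing by it therefore lowers every gene in ALDH-low at ZT12 relative to the other arrays. Signals as deposited are given beside the levels of the genes this report is about. For most other genes only the difference of levels is given. Leaving out the scaling moved the median ALDH difference of all features at ZT12 by -1.55 log2 units. Between 55.8% and 60.6% of the 59305 spots on an array were well above background. Both ZT0 arrays were on 1 slide and both ZT12 arrays on another, so slide and time of day cannot be told apart. ALDH-low at ZT0 and ALDH-high at ZT12 were at position 1_1 of their slides and the other 2 arrays at position 1_2. Markers of the tumour cells and of blood cells were on the arrays together. Krt18, a keratin of simple epithelia, had signals of 26267 and 1991 in ALDH-low and ALDH-high at ZT0, and 27611 and 9511 at ZT12. Of 12 neutrophil markers, 12 were well above background on all 4 arrays, as were 11 of 14 T and NK cell markers and 8 of 9 B cell markers.

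The probes shown here are those on which the results turn: the granule proteases, and all 3 probes each of Hdc and Kit, which do not all report the same transcript. Bases 1 to 30 of each 60-base probe are given, 5′ to 3′, as the array design lists them.
Prss34 A_51_P194609: tcttaaacctccctattctatggtagtgaa
Mcpt8 A_66_P124318: gctttatgccttggattcggaaaacaatga
Cpa3 A_51_P214127: gccaagtatatcctcaagaatacttcctaa
Hdc A_51_P254656: ttgatcataacctcacagggtcttcgtgat
Hdc A_55_P2631999: gtttaggaaggctttcaagttgcaaatagt
Hdc A_66_P125908: aattgtctcacagaaagtgtgttaaaggaa
Kit A_66_P128434: gtcaggtacttaaggggccacaccattgag
Kit A_55_P2935231: cttgctgcaaagcagtctgggaaatgtagt
Kit A_55_P2935232: cctcatgccactgcataaaatttagatctt
In the files' coordinates, build mm9, the Prss34 probe lies at chr17:25436942-25437001 on the plus strand, the Mcpt8 probe at chr14:56701075-56701134 on the minus strand and the Cpa3 probe at chr3:20115674-20115733 on the minus strand. The Hdc probes lie, in the order shown, at chr2:126419516-126419575, chr2:126426030-126426089 and chr2:126420357-126420416, all on the minus strand. The first Kit probe, designed on RefSeq transcript NM_001122733, lies at chr5:76052394-76052453 on the plus strand. The other two Kit probes, designed on the cDNA clone AK047175, lie at chr5:76048262-76048321 and chr5:76048202-76048261 on the same strand, directly beside each other and apart from the first. Of the 14 member probes, 11 carry a RefSeq accession found in the RefSeq gene table, each under the same symbol. Whether a probe lies in a coding exon or a UTR was not analysed here.

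The 3 granule proteases were lowest in ALDH-low cells at ZT12, with signals as deposited that were nearer each other on the other 3 arrays. Prss34, a serine protease of basophils, had levels of 0.53 and 0.01 in ALDH-low and ALDH-high at ZT0, and of -3.15 and 0.57 at ZT12. Its signal as deposited was 307, 302, 51.7 and 231 in the same order, so the low value on 1 array was present before any scaling. Mcpt8, the mast cell protease that marks mouse basophils, had levels of 1.42, 0.95, -1.65 and 1.79 and signals of 570, 579, 147 and 541. Cpa3, the carboxypeptidase of mast cell and basophil granules, had levels of -2.02, -2.19, -4.22 and -1.10 and signals of 52.8, 65.9, 24.6 and 72.8. For all 3, ALDH-low at ZT12 was the low array, and the signals on the other three lay closer together. By level ALDH-high at ZT12 was the highest array, for Cpa3 by more than 2-fold over ALDH-high at ZT0.

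At ZT12 Prss34 was 13.1-fold higher in ALDH-high than in ALDH-low cells, Mcpt8 10.8-fold and Cpa3 8.67-fold. At ZT0 the same differences (ALDH-high minus ALDH-low) were -0.52 for Prss34, -0.47 for Mcpt8 and -0.17 for Cpa3 on the log2 scale, all under 2-fold. The scanner software models the error of each spot, and this error of a member's ALDH difference was 0.20 to 0.33 log2 units. It covers the measurement of a spot and not the spread between tumours. On the signals as deposited, the ZT12 difference was 4.48-fold for Prss34, 3.69-fold for Mcpt8 and 2.95-fold for Cpa3, and the ZT0 differences were -0.02, 0.02 and 0.32 log2 units. The sign of the small ZT0 difference of Mcpt8 and Cpa3 thus turned with the scaling, and the ZT12 direction did not. No term for a difference between the times could be tested with 1 array per group.

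**Figure D1:**
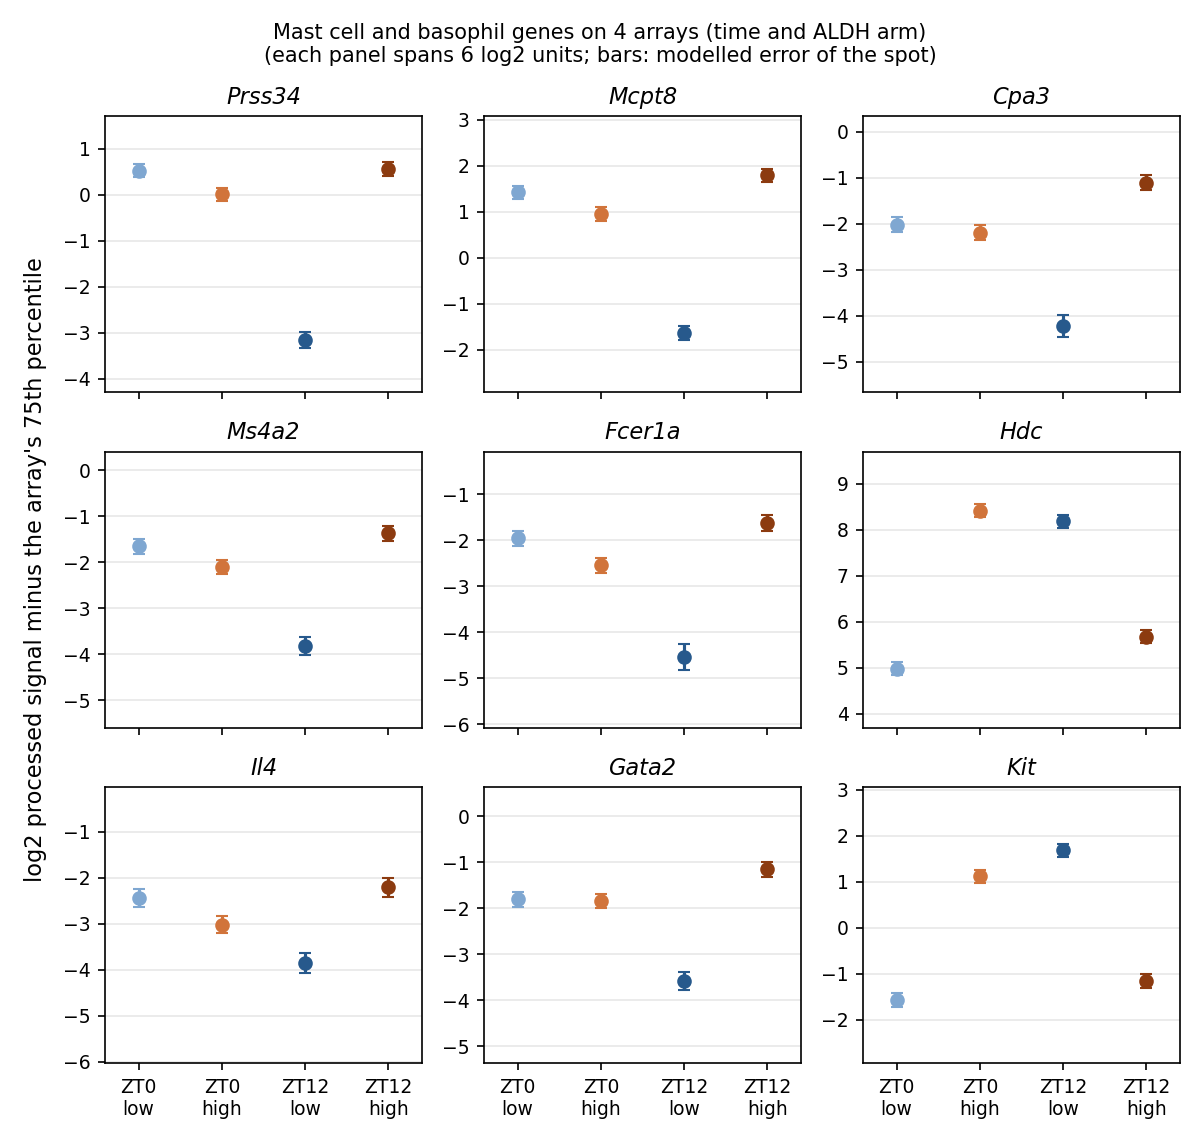
Level (log2 processed signal minus the array's 75th percentile) of the 9 genes on the 4 arrays, 1 panel per gene, with bars for the modelled error of the spot and panels of equal height in log2 units. ALDH-low at ZT12 is the lowest array for 7 genes, while Hdc and Kit are high in ALDH-high at ZT0 and ALDH-low at ZT12.

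The alpha and beta chains of the IgE receptor followed the proteases at a smaller size. Fcer1a, the chain that binds IgE, had levels of -1.96 and -2.54 in ALDH-low and ALDH-high at ZT0 and of -4.53 and -1.62 at ZT12. Its signals were 55.1, 51.5, 19.8 and 50.9. Ms4a2, the beta chain that amplifies the receptor's signal, had levels of -1.65, -2.09, -3.82 and -1.37 and signals of 67.9, 70.4, 32.4 and 60.7. Both were lowest in ALDH-low at ZT12, and their signals on the other 3 arrays differed little. Fcer1a was 7.53-fold and Ms4a2 5.49-fold higher in ALDH-high than in ALDH-low cells at ZT12, or 2.57-fold and 1.87-fold on the signals as deposited. At ZT0 the differences were -0.59 and -0.44 log2 units. A further Ms4a2 probe, A_55_P2176015, was not well above background on any of the 4 arrays and gives no level.

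The third chain of the receptor went the other way. Fcer1g, the gamma chain, is also a part of other Fc receptors on neutrophils, macrophages and NK cells. Its signal was 14906 and 83684 in ALDH-low and ALDH-high at ZT0, and 92859 and 15278 at ZT12. It was 3.99-fold higher in ALDH-high at ZT0 and 2.07-fold lower at ZT12, with the same signs under each of the 5 other scalings tried.

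Hdc, the histidine decarboxylase that makes histamine, was high in ALDH-high cells at ZT0 and in ALDH-low cells at ZT12. Its brightest probe had levels of 4.99 and 8.42 in ALDH-low and ALDH-high at ZT0, and of 8.19 and 5.68 at ZT12. Signals of that probe were 6766, 102628, 134126 and 8017, and no spot was saturated. The difference was 10.8-fold toward ALDH-high at ZT0 and 5.70-fold toward ALDH-low at ZT12. All 3 probes of Hdc gave this pattern. The other two had ZT0 differences of 3.52 and 4.02 log2 units and ZT12 differences of -3.03 and -3.41. In the mouse, neutrophils and immature myeloid cells also transcribe Hdc, so the gene is no marker of basophils and mast cells alone.

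Kit encodes the receptor for stem cell factor that keeps mast cells alive. The probe on its RefSeq transcript had levels of -1.57 and 1.12 in ALDH-low and ALDH-high at ZT0, and of 1.69 and -1.15 at ZT12. Its signals were 71.8, 654, 1479 and 70.3, high on the same 2 arrays as those of Hdc and highest, like them, in ALDH-low at ZT12. The difference was 6.47-fold toward ALDH-high at ZT0 and 7.17-fold toward ALDH-low at ZT12. The pair of probes on clone AK047175 did not show it. One had signals of 106.8, 68.5, 116 and 101 and the other of 52.3, 43.0, 58.5 and 31.1. Their ALDH differences were -1.14 and -0.78 log2 units at ZT0, and 1.35 and 0.64 at ZT12, opposite in sign to the first probe at both times. On the signals as deposited they were -0.64 and -0.28 at ZT0, and -0.20 and -0.91 at ZT12, so the opposite sign at ZT12 held by level and not without scaling. With the 3 Kit probes averaged, Kit was under 2-fold in every contrast, so each Kit value here rests on 1 probe. Which transcript each probe detects was not tested.

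**Figure D2:**
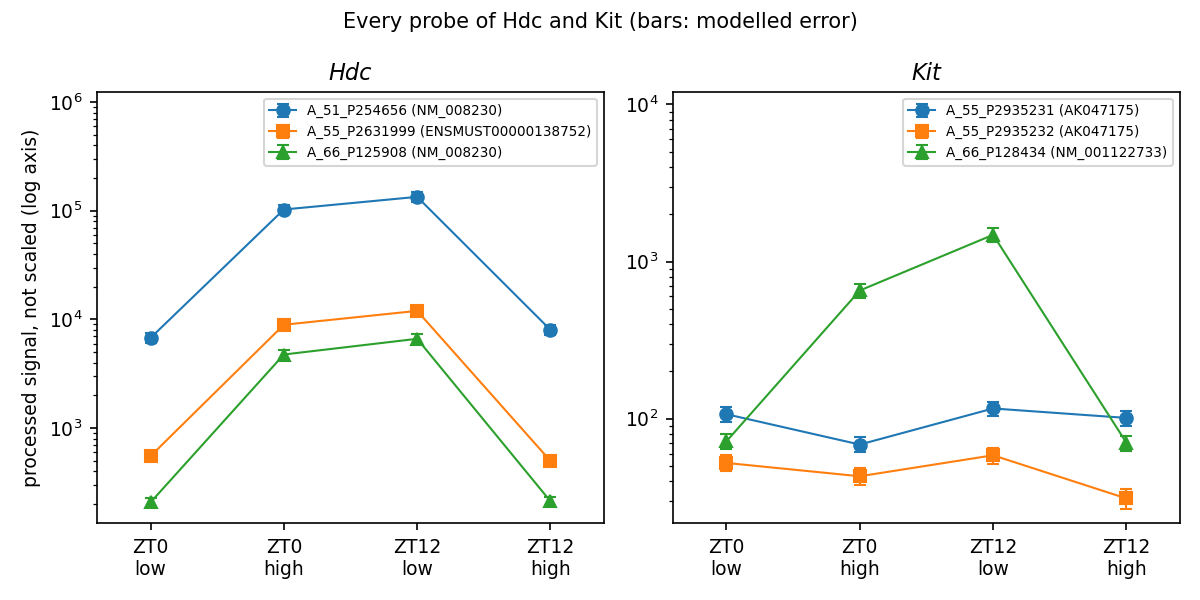
Processed signal as deposited, on a log axis, of each of the 3 Hdc and 3 Kit probes on the 4 arrays, with bars for the modelled error of the spot and lines joining the points of 1 probe. The 3 Hdc probes share a pattern with the RefSeq probe of Kit (71.8, 654, 1479 and 70.3), which the AK047175 probes of Kit lack.

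Many neutrophil markers moved with Hdc and with the RefSeq probe of Kit. Of 12 neutrophil markers, 7 were at least 2-fold higher and 1 lower in ALDH-high at ZT0 (median 2.83), and 1 was higher and 6 were lower at ZT12 (median -1.18). Over all features 19.4% were higher and 31.2% lower at ZT0, and 31.0% and 16.1% at ZT12. Ly6g, a surface marker of neutrophils, differed by 4.97 and -3.06 log2 units at ZT0 and ZT12, and Cxcr2, a neutrophil chemokine receptor, by 4.69 and -3.18. Not every marker did so: Mpo differed by -1.77 and 0.02, S100a8 by 0.35 and 0.57, and S100a9 by -0.26 and 1.27. The summed level of the list lay between 10.68 and 11.61 on the 4 arrays. The part of neutrophil RNA in the Hdc and Kit values was not tested.

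Il4, which encodes the type 2 cytokine interleukin-4, was nearly flat before scaling. Its signals were 39.3 and 37.2 in ALDH-low and ALDH-high at ZT0, and 31.9 and 33.8 at ZT12, all within a narrow range. By level it read -2.44, -3.01, -3.85 and -2.21, which makes it 3.11-fold higher in ALDH-high at ZT12. On the signals as deposited that difference was 0.09 log2 units, under its modelled error of 0.31. Under median scaling and under quantile normalization it was 0.77, it was 0.79 in the authors' deposited table, and under normexp with quantile normalization 0.20. Its place among the 7 genes that were at least 2-fold higher in ALDH-high at ZT12 therefore holds for the 75th percentile and not for these scalings.

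Gata2 encodes the zinc finger factor that both lineages require. Its levels were -1.80 and -1.84 in ALDH-low and ALDH-high at ZT0, and -3.58 and -1.16 at ZT12. Signals were 61.2, 83.8, 38.3 and 70.2, again lowest in ALDH-low at ZT12. The ZT12 difference was 5.38-fold toward ALDH-high, or 1.83-fold on the signals as deposited. At ZT0 the difference was -0.04 log2 units, or 0.45 on the signals as deposited.

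Taken by contrast, 2 of the 9 genes (Hdc and Kit) were at least 2-fold higher in ALDH-high at ZT0 and 0 were lower. Of all 23520 features, 19.4% were higher and 31.2% lower by this rule. The members' median difference was -0.44, beside -0.32 for all features. At ZT12, 7 genes were higher and 2 (Hdc and Kit) lower in ALDH-high, where 31.0% of all features were higher and 16.1% lower. The members' median was 2.46, beside 0.30 for all features. On the signals as deposited, 4 of the 9 (Prss34, Mcpt8, Cpa3 and Fcer1a) were at least 2-fold higher at ZT12, where 10.8% of all features were higher and 55.0% lower. With normexp and quantile normalization 3 (Prss34, Mcpt8 and Cpa3) were higher, beside 13.5% and 11.2% of all features higher and lower. Fcer1a (0.78), Ms4a2 (0.87) and Gata2 (0.85) were under 2-fold there, as was Il4. Under median scaling 6 were higher, where the shares were 19.3% and 36.5%.

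**Figure D3:**
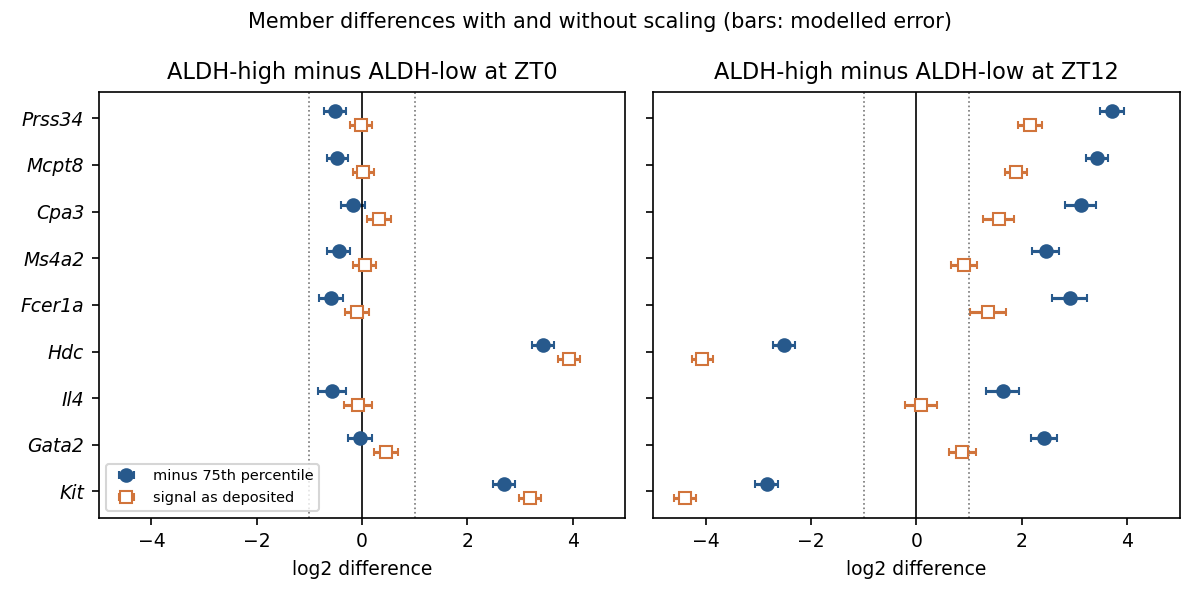
Log2 difference between ALDH-high and ALDH-low cells at ZT0 and at ZT12 for the 9 genes, with levels scaled to the 75th percentile (filled) and with signals as deposited (open), bars for the modelled error and dotted lines at 2-fold. At ZT12 the scaling raised every difference, that of Il4 from 0.09 to 1.64, and Prss34, Mcpt8, Cpa3 and Fcer1a stayed past 2-fold without it.

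Every one of the 9 genes had ALDH differences of opposite sign at the 2 times, or 5 of 9 on the signals as deposited. Hdc and Kit were at least 2-fold higher in ALDH-high at ZT0 and at least 2-fold lower at ZT12, as were 14.0% of all features. The reverse pattern, with at least 2-fold on both sides, held for 20.0% of all features and for no member. Only 0.106% of features were at least 2-fold higher at both times and 0.166% lower at both. Among features past 2-fold at both times, opposite signs were thus the rule and are not particular to these genes.

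Compared by time within an ALDH arm, 7 genes were at least 2-fold lower and 2 (Hdc and Kit) higher at ZT12 than at ZT0 in ALDH-low cells. Over all features 32.5% were lower and 16.3% higher. The members' median was -2.17, beside -0.42 for all features. Prss34 differed most, by -3.68 log2 units, and Kit by 3.26 in the other direction. On the signals as deposited, 5 members were lower and 2 higher, where the shares of all features were 13.5% and 40.5%. In ALDH-high cells Cpa3 was at least 2-fold higher at ZT12 (1.09), Hdc (-2.73) and Kit (-2.28) were lower, and the other members differed by under 2-fold. Over all features 31.8% were higher and 18.9% lower in ALDH-high cells. The median of the members there was 0.73, beside 0.33 for all features. Cpa3 was under 2-fold under each of the other scalings, with 0.14 on the signals as deposited. Mcpt8 was past 2-fold in its place under quantile normalization (1.14), normexp with quantile normalization (1.02) and in the authors' table (1.19). As deposited, 0 members were higher and 2 lower in ALDH-high, where the shares of all features were 10.8% and 38.5%. The low values of the proteases, Fcer1a, Ms4a2 and Gata2 thus lay on 1 array, ALDH-low at ZT12, and both of its contrasts share it.

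**Figure D4:**
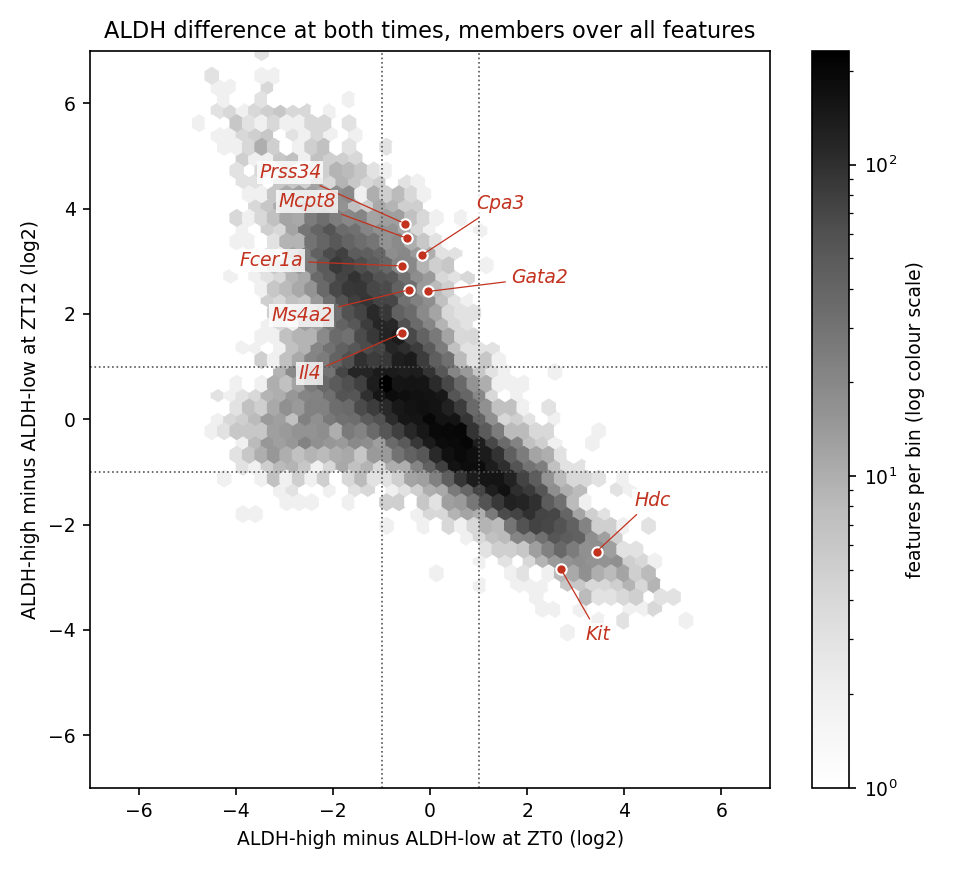
Log2 difference between ALDH-high and ALDH-low cells at ZT0 (x axis) and ZT12 (y axis) for 23520 features, as counts per hexagon on a log colour scale, with the 9 genes in red and dotted lines at 2-fold. The features run from upper left to lower right; Hdc and Kit lie at the lower right, and the other 7 genes lie near 0 at ZT0 and from 1.64 to 3.72 at ZT12.

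Array position separates the same pairs of arrays as the ALDH-by-time pattern, so these cannot be told apart over all 4 arrays. Within position 1_1, ALDH-high at ZT12 against ALDH-low at ZT0, no member differed by 2-fold, with a median of 0.37 beside 0.03 for all features (2.93% higher, 1.65% lower). Within position 1_2, ALDH-high at ZT0 against ALDH-low at ZT12, 6 members were at least 2-fold higher in ALDH-high (Prss34, Mcpt8, Cpa3, Ms4a2, Fcer1a and Gata2), with a median of 1.74. The median over all features was 0.21, with 12.1% higher and 5.76% lower. So the low values of these 6 genes in ALDH-low at ZT12 were present against the array at the same position, although the pair also differs in time and slide. Hdc and Kit, by contrast, differed by less than 2-fold within either position.

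The fit that the design allows across all features, limma with additive terms for ALDH and time (Benjamini-Hochberg over 23520 features), called 0 features for either term. At an unadjusted p under 0.05 it passed 7 features for ALDH and 2 for time, with 0 members among them. Smallest adjusted p-values were 0.999997 for ALDH and 0.999981 for time. The mean ALDH difference over both times was 1.60 for Prss34, 1.48 for Mcpt8, 1.47 for Cpa3 and -0.07 for Kit, each with a standard error of 1.54. An additive term averages contrasts that have opposite signs here, and it had 1 residual degree of freedom.

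Some members were closer to each other over the 4 arrays than others, as a description of 4 values per gene. The root mean square distance between profiles centred on their own mean was 0.167 log2 units for Ms4a2 and Gata2 and 0.177 for Ms4a2 and Fcer1a. It was 0.246 for Prss34 and Mcpt8 and 0.313 for Hdc and Kit. Among 12731 other named genes well above background on all 4 arrays, the 8 nearest to the members' mean profile were Hgf (0.0814), Vaultrc5, Clec2i, Olfr521, Vmn1r234, Olfr553, Grin2c and Hist1h2ac (0.152). Hgf encodes the ligand of the MET receptor. That mean joins both patterns of the members and belongs to no single one of them.

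Olfactory and vomeronasal receptor genes, whose proteins act in sensory neurons of the nose, were looked at after the nearest genes were seen. Of 215 olfactory receptor genes tested, 60% were at least 2-fold higher in ALDH-high at ZT12, with a median difference of 1.58 by level and 0.03 on the signals as deposited. Of 81 vomeronasal receptor genes, 77.8% were higher, with medians of 2.02 and 0.47. The scaled ZT12 difference of Il4 (1.64) lies near these medians. Those of Prss34 (3.72), Mcpt8 (3.44) and Cpa3 (3.12) lie above both, and on the signals as deposited they were 2.16, 1.88 and 1.56. Taken gene by gene, the nearest profile was that of Olfr821 for Fcer1a (0.0186), Olfr1316 for Il4 (0.0218) and Vmn2r37 for Cpa3 (0.0995). The nearest gene of each other member belonged to neither family. In ALDH-low at ZT12 the lowest signal well above background was 15.1. There Fcer1a had a signal of 19.8, Cpa3 24.6, Il4 31.9, Ms4a2 32.4 and Gata2 38.3. The part of the scaling in the differences of members other than Il4 was not tested beyond the values given.

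Other genes of basophils did not follow the members as a group. Of 10 listed, 9 were tested: 3 were at least 2-fold higher and 1 lower in ALDH-high at ZT0, and 1 was higher and 2 were lower at ZT12. The shares over all features, for this list and those below, were 19.4% higher and 31.2% lower at ZT0. At ZT12 they were 31.0% and 16.1%. The median of the basophil list was -0.16 at ZT0 and -0.63 at ZT12, and the ZT0 sign turned under each of the other scalings. Cd200r3, an activating receptor of basophils and mast cells, was the gene that was higher at ZT12, by 6.48-fold. Its signals were 24.4, 30.8, 21.3 and 47.0, and its ZT12 difference stayed above 0 under every scaling tried (0.62 to 2.70). Csf2rb, the shared beta chain of the receptors for interleukin-3, interleukin-5 and GM-CSF, had the pattern of Hdc (2.797 at ZT0, -2.03 at ZT12). Il3ra, the specific chain of the interleukin-3 receptor, differed by -0.57 and 0.95, and its ZT12 sign turned without scaling. Itga2, the integrin chain detected on basophils as CD49b, was well above background on 2 arrays, both ALDH-low. By level it was at least 3.32-fold lower in ALDH-high at ZT0. Computed from both signals, its ZT0 difference ran from -3.86 to -0.64 log2 units over the scalings tried.

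Other mast cell genes ranged from undetected to bright. Of 15 listed, 10 were tested and 5 were not well above background on any array, namely Mcpt9, Tpsab1, Tpsg1, Mrgprb1 and Mrgprb2. In ALDH-high, 1 was at least 2-fold higher and 4 were lower at ZT0 (median -0.42), and 4 were higher and 1 lower at ZT12 (median 0.55). Signs of these medians turned under some scalings (0.07 at ZT0 and -0.32 at ZT12 under median scaling). Mcpt1, the chymase of mucosal mast cells, had signals of 56.7 in ALDH-low at ZT0 and 162 in ALDH-high at ZT12, and was not well above background on the other 2 arrays. By level, ALDH-high over ALDH-low at ZT12 was at least 31.5-fold for Mcpt1, at least 7.16-fold for Mcpt2 and at least 7.39-fold for Cma1, the chymase of connective tissue mast cells. These bounds set the bright array's level against the lowest signal well above background on the dim array. Computed from both signals without the bound, the ZT12 difference of Mcpt1 ran from 2.21 to 6.49 log2 units over the scalings tried. That of Mcpt2 ran from 0.78 to 4.90 and that of Cma1 from 0.69 to 3.54. Ctsg, cathepsin G of mast cell and neutrophil granules, had signals of 2485, 1183, 2628 and 643, and differed by -1.56 at ZT0 and -0.48 at ZT12. Tpsb2, a tryptase, was 2.35-fold higher in ALDH-high at ZT12, and its sign turned without scaling. Mcpt4, another chymase, differed by 1.20 at ZT0 and 0.62 at ZT12, the latter with a sign that turned.

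Eosinophils share granule and receptor genes with basophils, and their markers were split. Of 9 tested, 2 were at least 2-fold higher and 2 lower at ZT0 (median 0.08), and 3 were higher and 2 lower at ZT12 (median 0.56, and -0.31 under median scaling). Over all features 19.4% were higher and 31.2% lower at ZT0, and 31.0% and 16.1% at ZT12. Epx, the eosinophil peroxidase, was not well above background on any array. Siglecf, a lectin of eosinophils that some tumour neutrophils also carry, had signals of 137, 3140, 3677 and 163, high on the same 2 arrays as Hdc. By level Prg2, the major basic protein, was at least 6.34-fold lower in ALDH-high at ZT0 and at least 3.76-fold higher at ZT12. Computed from both signals without the bound, its ZT0 difference ran from -4.64 to -0.90 log2 units over the scalings tried. The ZT12 difference of Prg2 ran from 0.43 to 3.92. Blood progenitor markers, which matter here because progenitors express Kit and Gata2, had 8 of 9 tested. Of these 1 was at least 2-fold higher and 5 were lower at ZT0 (median -1.20), and 2 were higher and 0 lower at ZT12 (median 0.23). The count lower at ZT0 was 1 under median scaling and without scaling, and 3 under the other scalings. The ZT12 median turned sign under each of the other scalings (-0.64 under median scaling). Their summed level lay between 1.43 and 2.26 on the 4 arrays.

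Most genes of the IgE receptor signalling list, which includes the gamma chain Fcer1g, had the pattern of Hdc and not that of Fcer1a and Ms4a2. Of 16 genes tested, 10 were at least 2-fold higher and 5 lower in ALDH-high at ZT0 (median 2.004), and 2 were higher and 10 lower at ZT12 (median -1.30). Between 9 and 13 of them were lower at ZT12 under the 6 scalings. Lyn and Syk, the kinases that first act on the receptor, differed by 2.28 and 3.08 at ZT0, and by -1.66 and -2.57 at ZT12. Lat, an adaptor that T cells also use, went the other way with -2.39 and 4.195, and Lat2, a related adaptor, differed by -1.06 and 0.998. All of these signalling genes are used by other blood cells too.

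Partners of KIT gave the same picture. Of 10 tested, 6 were at least 2-fold higher and 1 lower in ALDH-high at ZT0 (median 1.90), and 0 were higher and 6 lower at ZT12 (median -1.23). Ptpn6, a phosphatase that restrains KIT signalling, differed by 2.11 and -1.19. Kitl, the ligand of KIT, was not well above background in ALDH-high at ZT0, where by level it was at least 5.04-fold lower than in ALDH-low. Computed from both signals, its ZT0 difference ran from -4.43 to -0.78 log2 units over the scalings tried. At ZT12 Kitl differed by -0.02.

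Lineage factors showed no common direction. Of 13 tested, 4 were at least 2-fold higher and 2 lower at ZT0 (median -0.01), and 1 was higher and 5 lower at ZT12 (median 0.05). The sign of both medians turned under some scalings, with 0.47 at ZT0 and -0.82 at ZT12 under median scaling. Mitf, the mast cell and melanocyte factor, differed by 0.80 and -1.03. Gata1, which acts with GATA2 in these lineages, differed by -0.75 at ZT0 and was not well above background on either ZT12 array. Cebpa, a myeloid factor, differed by -0.42 and 1.097, and both signs turned with the scaling. Gata3, a factor of T cells and mammary epithelium, was 10.1-fold lower in ALDH-high at ZT0 and differed by 0.05 at ZT12.

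Of the type 2 cytokines and receptors, 8 of 17 genes were tested. Il5 and Il13, the cytokines often made with Il4, were not well above background on any array, and Il33 was so on 1. In ALDH-high, 4 were at least 2-fold higher and 2 lower at ZT0 (median 0.94), and 3 were higher and 4 lower at ZT12 (median -0.38). Il4ra, the receptor chain for interleukin-4, differed by 2.69 and -1.89, whereas Il1rl1, the receptor for interleukin-33, differed by 0.02 and 1.20, the latter turning sign without scaling. Il5ra differed by -1.29 and 2.98.

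Histamine and lipid mediator genes were likewise divided. Of 15 tested, 6 were at least 2-fold higher and 2 lower at ZT0 (median 0.41), and 3 were higher and 5 lower at ZT12 (median -0.11). Without scaling 0 were higher and 9 lower at ZT12 (median -1.67), and with normexp and quantile normalization 0 were higher and 5 lower. Hnmt, which breaks down histamine, differed by 3.39 and -2.31, and Alox5, the first enzyme of leukotriene synthesis, by 3.67 and -2.43, both with the signs of Hdc. Hpgds, the prostaglandin D2 synthase of mast cells, differed by -2.81 and 2.20, the opposite signs. Slc18a2, the transporter that loads histamine into granules, differed by -0.33 and 0.49, and both signs turned with the scaling.

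Lymphocyte, macrophage and erythroid markers, unlike those of neutrophils and platelets, were mostly higher in ALDH-high at ZT12 beside the 7 members. Of all features 31.0% were at least 2-fold higher there, and of 12 neutrophil markers 1 was higher and 6 were lower. In the T and NK cell list 13 of 14 genes were at least 2-fold higher there (median 4.17), in the B cell list 8 of 9 (median 4.32) and in the macrophage list 5 of 9 (median 1.55). The summed level of the B cell list was 5.21 and 2.82 in ALDH-low and ALDH-high at ZT0, and 2.003 and 5.51 at ZT12. That of the T and NK cell list was 5.27, 4.33, 2.82 and 5.65. Erythroid markers were higher for 6 of 8 (median 6.29), melanocyte markers for 5 of 5 (median 1.63), platelet markers for 2 of 7 (median 0.24), epithelial markers for 2 of 9 (median 0.34) and endothelial markers for 1 of 2 (median 0.996). Without scaling the ZT12 median was 2.62 for T and NK cells, 2.77 for B cells and 4.73 for erythroid markers. It was -0.01 for macrophages, 0.08 for melanocytes, -1.32 for platelets, -1.21 for epithelial and -0.56 for endothelial markers. At ZT0 the lymphocyte and erythroid lists were lower in ALDH-high (medians -3.02, -2.48 and -8.12), where the proteases, Fcer1a and Ms4a2 differed by under 2-fold. The part of these cells in the members' values was not tested.

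Promoter sequence was compared because 7 of the 9 genes were lowest on the same array. GATA factors bind sequences around the core GATA, and the hexamers AGATAA and TGATAA were searched on both strands in the 250 bases before each start, in RefSeq promoters of build GRCm38.p6. At least one of these hexamers lay in the window of 4 of the 9 genes (4 of 12 windows), against 16.6% of 32851 windows of all genes. Each match was AGATAA, which 9.99% of all windows hold. Windows of 30 bases on the gene's strand show them in capitals, reading TTATCT where the hexamer lies on the opposite strand.
Prss34: cctgtggaagaaAGATAAatgggaccctgg
Cpa3: agctgttcgtcgAGATAAaagctgaggtat
Ms4a2: cagcctggagacTTATCTgacaagtaggtt
Ms4a2: acaagtaggttccgcatgaAGATAAtcatt
Ms4a2: ttctgctctcttTTATCTtctcatttccta
Fcer1a: acaaccctattaTTATCTctggagaaagcc
The first base of the match lay 31 bases before the start of Prss34 (chr17:25298351-25298380, plus strand), 46 before that of Cpa3 (chr3:20242210-20242239, minus strand) and 92 before that of Fcer1a (chr1:173227304-173227333, minus strand). In Ms4a2 the matches lay 37 bases (chr19:11623739-11623768), 11 bases (chr19:11623720-11623749) and 224 bases (chr19:11623926-11623955) before the start, all shown on the minus strand. The windows of Mcpt8, Hdc, Il4, Gata2 and Kit held neither hexamer. The E-box hexamer CAGCTG lay in the windows of Cpa3 and Fcer1a, CACGTG in none of them, against 13.0% and 6.02% of all windows. These are matches of letters, and no binding was measured.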

How the data were processed

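Gene expression of 4 sorted tumour fractions was measured on 4 one-colour Agilent arrays. Per the file headers, the deposited processed signal is a linear intensity. Feature Extraction 10.7.1.1 (9.5.1.1 per the submitters' processing notes) had subtracted background and spatial trend and had not scaled arrays to each other; the design names build mm9. The authors' deposited series table also holds intensity values and was used as an alternative. Control spots and outlier spots were left out, and log2 signals minus the array's 75th percentile were used. For genes with several probes, the probe with the highest mean level stood for the gene. A difference of at least 2-fold counted; where 1 array was not well above background, its bound did. Probes on the array repeated over many spots had a median SD of 0.0380 to 0.0460 log2 units within an array, which leaves out the spread between tumours; the number of arrays limits the precision. limma 3.58.1 in R 4.3.3 gave the additive fit and was tested on simulated data, and Python 3.11.15 with pandas 2.3.3 did the rest. The rule for named genes took the 9 members, fixed genes of both lineages, in each list the largest mean ALDH differences measured on all arrays, and the 8 nearest profiles; S100a8, S100a9, Cxcr2, Lyn, Syk, Hnmt and the receptor families were added after their values were seen. The members and the 18 gene lists were chosen with earlier results of these data known. Alternatives were other scalings, filters, probe rules and folds, and leaving out each array from the fit. Signals without scaling were added after seeing the data.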

Additional observations from a re-analysis of the deposited data

Results flagged for a closer look

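By level, the ALDH difference of each of the 9 genes had opposite signs at ZT0 and ZT12, which is why they are listed here. On the signals as deposited this held for 5 of the 9. The ZT0 differences of Gata2 (-0.04) and Cpa3 (-0.17) were smaller than their modelled errors of 0.22 and 0.23. The difference between the times was not tested, since each group has 1 array. The ZT12 minus the ZT0 value of the ALDH difference was 4.23 log2 units for Prss34, 3.91 for Mcpt8, 3.502 for Fcer1a, 3.29 for Cpa3, 2.90 for Ms4a2, 2.47 for Gata2 and 2.21 for Il4. It was -5.94 for Hdc and -5.54 for Kit.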

How the results depend on the processing

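Of 23 member differences of at least 2-fold over the 4 contrasts, 23 kept their sign under each of the 9 other settings of scaling, filter and probe rule. The number still at least 2-fold was 19 under median scaling, 20 under quantile normalization and 13 under normexp with quantile normalization. It was 20 in the authors' series table, 19 with the mean of probes and 17 without scaling. The other filters and the rule on outlier spots left all 23. They could not change a member, since all 9 were well above background on every array and each probe was 1 spot. Median differences of the members, for ALDH at ZT0, ALDH at ZT12, time in ALDH-low and time in ALDH-high, were 0.041, 1.58, -1.35 and 0.20 under median scaling, and -0.062, 1.73, -1.35 and 0.37 under quantile normalization. With normexp and quantile normalization they were -0.062, 0.85, -0.51 and 0.30, in the series table -0.064, 1.78, -1.37 and 0.38, and without scaling 0.051, 0.90, -1.07 and -0.21. Scaling moved the all-feature median ALDH difference by 0.48 at ZT0 and -0.87 at ZT12 (median scaling) and by 0.49 and -1.55 (none). Members higher in ALDH-high at ZT12 numbered 3 with normexp and 4 without scaling, beside 13.5% and 10.8% of all features. Those lower with time in ALDH-low numbered 2 with normexp, beside 13.1%. In ALDH-high the count higher with time was 0 under median scaling and without scaling, beside 19.1% and 10.8% of all features. At 1.5-fold it was 6, and 1 member was lower at ZT0. At 4-fold it was 0. Shares of all features at 1.5-fold and 4-fold were not computed. With the mean of probes, 1 was higher at ZT0, 1 lower at ZT12, 1 higher with time in ALDH-low and 1 lower in ALDH-high. Kit fell under 2-fold there, and the shares of all features were 18.7%, 14.5%, 15.1% and 17.8% in the same order. limma called 0 features in each alternative. With no term for time, 48 features passed an unadjusted p under 0.05 for ALDH on all 4 arrays. Each fit that left out 1 array had a single array in 1 ALDH arm and no term for time, so its p-values are not given. No paired analysis was possible by replicate number, because the labels give none that pairs the arrays; the time term of the additive fit also takes up the slide that both arrays of a time share.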
